A study of Rattus norvegicus with 46 samples.

Results

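Intermediate filament genes, 7 in number, were followed through ischemia-reperfusion injury of the rat kidney: the keratins Krt7, Krt8, Krt18, Krt19 and Krt20, together with Vim (vimentin) and Nes (nestin). A gene was taken from the array where a probe set (the group of oligonucleotide probes that reads 1 transcript) carried its symbol alone, and the probe set with the highest mean over all arrays stood for the gene. That gave values for 6 of the 7 genes, out of 17245 genes with such a probe set in all. No probe set carried the symbol Krt18 alone, so Krt18 has no value here, and Krt8 had 2 probe sets. The 46 kidneys came from Wister male rats in 10 groups. The 5 naïve rats had neither surgery nor a study drug and were anesthetised only for collection. The other rats were injected with saline (Vehicle, 5, 4 and 5 rats at 3, 24 and 120 h), dexamethasone at 3 mg/kg (Dex, 4, 5 and 4 rats) or valproic acid at 150 mg/kg (VPA, 5, 5 and 4 rats). The injection was given 30 min before a 45 min clamp of the left renal artery, and all of these rats also lost the right kidney at reperfusion. The naïve rats kept both kidneys and were not sham operated. Ischemia, abdominal surgery, the injection, longer anesthesia and loss of the other kidney therefore cannot be told apart in any comparison with them. The 3 h rats stayed anesthetised until they were killed. The 24 and 120 h rats were also given the analgesic buprenorphine after surgery, which is not reported for the naïve rats. RNA came from pieces of the bisected left kidney, so fewer cells of a type and less RNA per cell cannot be told apart.

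Intermediate filaments are the rope-like part of the cytoskeleton. In simple epithelia type II keratins such as Krt8 and Krt7 pair with type I keratins such as Krt18 and Krt19. In kidney, Krt8 and Krt18 are the usual tubular pair, Krt7 and Krt19 are strongest in collecting duct and in the urothelium that lines the renal pelvis, and Krt20 is known from the outermost urothelial cells and from gut. Vim forms the filaments of fibroblasts, leukocytes, endothelium and podocytes, and is a classical marker of tubule cells that have lost their mature form during repair. Nes, first known from neural progenitors, is found in podocytes and in some vascular and interstitial cells of the kidney.

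Promoters of the pair whose rise crossed both thresholds most often, Krt8 and Vim, are shown so that their start regions can be compared. RefSeq promoter windows (build GRCr8, 250 bases before to 50 after the start) were matched for 5 of the 7 genes, not for Krt7 or Krt19. Capitals mark TATAAA, the TATA box, on either strand. They also mark the AP-1 site, searched as TGAGTCA on both strands. The capitals upstream in Krt8 are overlapping TATA box matches on both strands. The Krt8 window is chr7:135010290-135010589 on the minus strand and the Vim window is chr17:81577011-81577310 on the plus strand.
Krt8: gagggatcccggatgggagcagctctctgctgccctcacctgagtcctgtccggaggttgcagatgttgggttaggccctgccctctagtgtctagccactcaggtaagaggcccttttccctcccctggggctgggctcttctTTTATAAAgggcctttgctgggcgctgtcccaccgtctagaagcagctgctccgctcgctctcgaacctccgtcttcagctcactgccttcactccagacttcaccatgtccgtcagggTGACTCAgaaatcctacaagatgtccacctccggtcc
Vim: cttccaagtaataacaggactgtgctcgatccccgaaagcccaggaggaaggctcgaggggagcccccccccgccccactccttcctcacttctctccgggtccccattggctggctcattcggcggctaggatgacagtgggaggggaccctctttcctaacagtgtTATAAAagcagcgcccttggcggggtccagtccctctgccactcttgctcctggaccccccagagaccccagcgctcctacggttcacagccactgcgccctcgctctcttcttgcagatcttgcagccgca
The plus-strand TATAAA began 104 bases before the annotated start of Krt8, 82 before that of Vim and 49 before that of Krt20, and it was in neither the Krt18 nor the Nes window. On either strand, TATAAA occurs in 14.2% of 33469 rat promoter windows of this length, and the plus-strand share was not computed. The AP-1 letters were found only in the Krt8 window, beginning 13 bases after the start, against 4.63% of all windows. The annotated start of Krt8 falls on the letters atg, so this match lies after a possible start codon. Whether the annotated starts of the 5 genes are alike was not tested, so the distances may not compare between genes. TGACGTCA (the cyclic AMP response element) and TGTTCT (the conserved side of a glucocorticoid response element) were in none of the 5 windows, against 1.83% and 20.7% of all windows. GGGCGG (GC box) was in the Nes, Krt18 and Vim windows and in 33.1% of all. A match describes letters in a window and no binding was measured.

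Levels are array signals on a linear scale, which set samples of 1 gene side by side and not 1 gene against another. Differences are on the log2(signal + 16) scale from a limma fit of all 46 arrays in 10 groups, given ± the standard error. A gene was called when it changed at least 2-fold with an adjusted p under 0.05, Benjamini-Hochberg adjusted over the 14607 probe sets with the larger spread, and all 6 measured genes were among these. Array medians ranged from 64.7 to 87.5. The highest was that of Vehicle 3 h replicate 1, which also lay furthest of all rats from its own group. Umod, Slc12a1, Slc12a3, Slc34a1 and Lrp2, which define kidney tubule segments, all gave signals of 246 or more on every array. Over the tested probe sets many injured rats lay nearest to another group, among them all of Vehicle at 3 and 24 h and VPA at 120 h. Vehicle 120 h replicate 1, VPA 3 h replicate 3, VPA 120 h replicates 2 and 3 and Dex 24 h replicate 4 lay nearest to naïve. Vehicle 24 h replicate 1 lay nearest to Vehicle 3 h, Vehicle 120 h replicate 4 to Dex 24 h and VPA 24 h replicate 2 to VPA 120 h. The 9 comparisons with naïve share the same 5 naïve rats. Over them, 52 of 54 values were above naïve and 15 were called, all of them higher. Of all tested probe sets, from 0.493% (VPA at 120 h) to 5.92% (VPA at 24 h) were called higher. Their median difference from naïve ran from -0.005 (Dex at 120 h) to 0.17 (Dex at 24 h). The share of all probe sets above naïve was not computed.

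**Figure D1:**
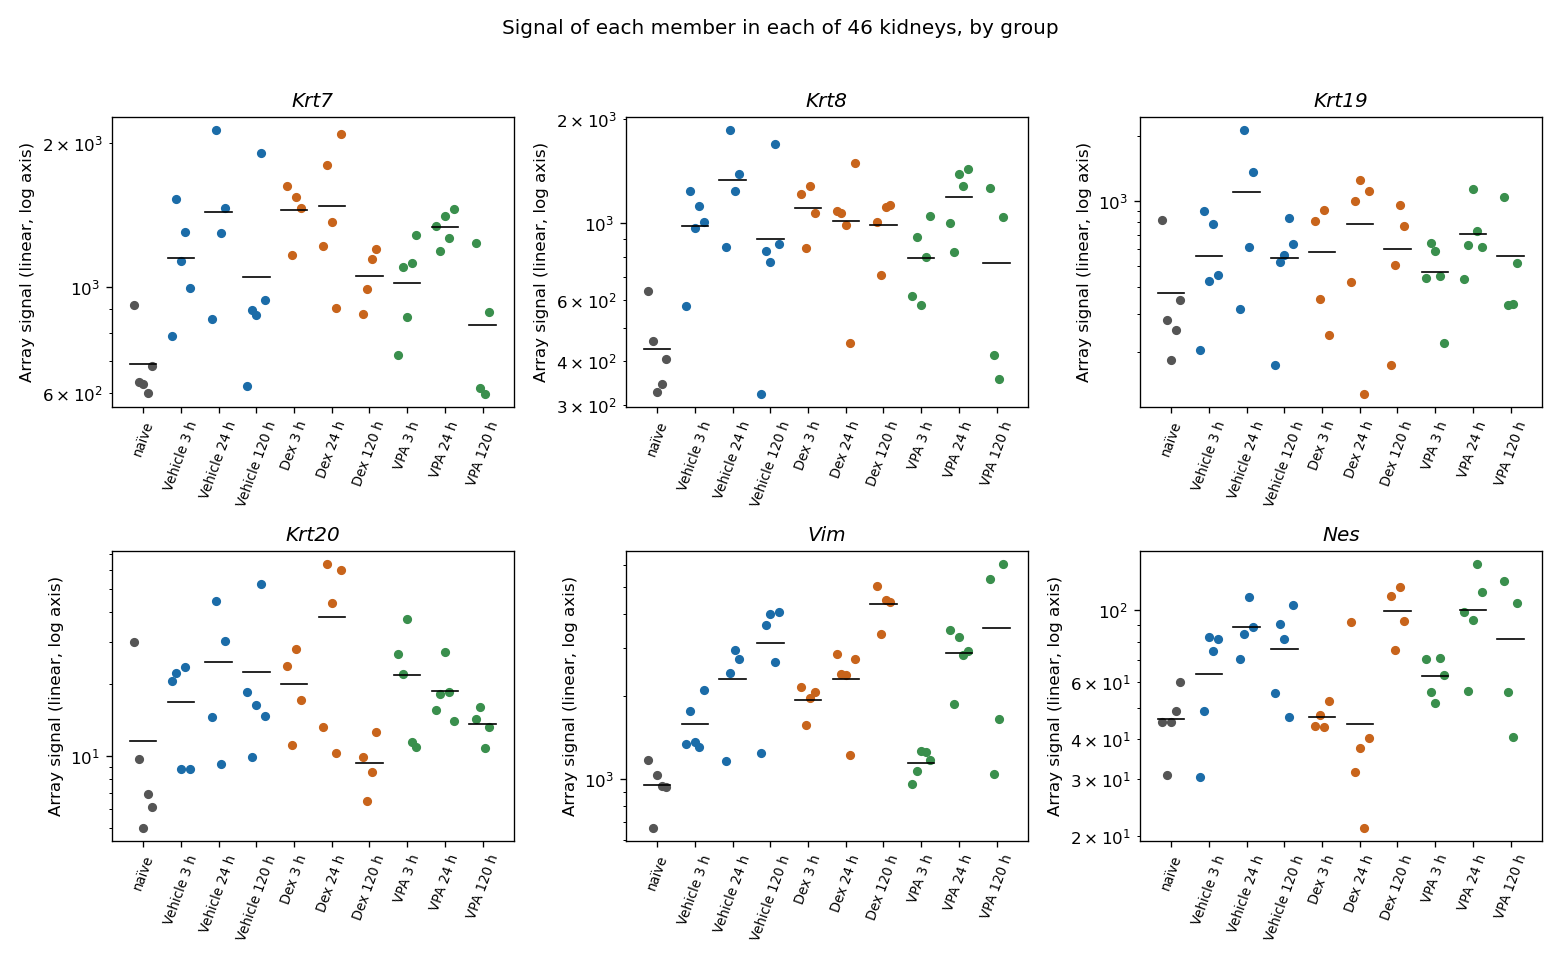
Array signal (linear values on a log axis) of each measured gene in each of the 46 kidneys; points are rats, black bars are arithmetic group means, and colours separate naïve, Vehicle, Dex and VPA. Krt8 and Vim rise clear of most naïve rats, the Krt19 and Krt20 groups overlap, and single rats of an injured group lie far below the others, such as Dex 24 h replicate 4 with a Vim signal of 1227, just above the naïve rats.

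Krt8 was the keratin of the set that passed the test most often. It was called in 6 of the 9 injured groups, beginning with Vehicle at 3 h, and was highest on average in Vehicle at 24 h. In the naïve rats its signal was 640, 459, 327, 343 and 408. In Vehicle rats it was 579, 1236, 968, 1121 and 1008 at 3 h. At 24 h it was 855, 1859, 1241 and 1386. All 4 Vehicle rats at 24 h and 4 of 5 at 3 h lay above the highest naïve rat. At 120 h the Vehicle rats spread over 322, 834, 773, 1697 and 874, with replicate 1 below the lowest naïve rat. In Vehicle rats the log2 difference from naïve was 1.14 ± 0.32 at 3 h (2.21-fold, 95% confidence interval 1.41 to 3.46, adjusted p = 0.00915), 1.57 ± 0.34 at 24 h (2.97-fold, adjusted p = 0.00097) and 0.88 ± 0.32 at 120 h (adjusted p = 0.058). Without Vehicle 120 h replicate 1 the 120 h difference was 1.20 with adjusted p = 0.00635.

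The drug groups gave Krt8 the same direction. In Dex rats Krt8 was 1219, 850, 1283 and 1070 at 3 h, then 1089, 1074, 986, 452 and 1492 at 24 h, then 1010, 710, 1113 and 1131 at 120 h. Only Dex 24 h replicate 4 lay inside the naïve range. The differences from naïve were 1.34 ± 0.34 (adjusted p = 0.00348), 1.14 ± 0.32 (adjusted p = 0.00978) and 1.18 ± 0.34 (adjusted p = 0.0106). In VPA rats Krt8 was 619, 912, 580, 800 and 1053 at 3 h, 1002, 829, 1391, 1286 and 1432 at 24 h, and 1266, 419, 357 and 1043 at 120 h. The 24 h group did not overlap naïve, while the 120 h group split, with replicates 2 and 3 in the naïve range. The differences were 0.85 ± 0.32 (adjusted p = 0.0727), 1.43 ± 0.32 (2.69-fold, adjusted p = 0.000846) and 0.64 ± 0.34 (adjusted p = 0.248). The other Krt8 probe set gave the same calls in every comparison. Whether the 2 probe sets read the same sequence was not tested, so their agreement may not be independent.

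Krt7, the partner type II keratin of ductal epithelia, moved less and stood at the edge of the 2-fold threshold. In naïve rats it was 914, 632, 625, 599 and 684. At 3 h it was 788, 1527, 1131, 1301 and 994 in Vehicle rats and 1626, 1164, 1543 and 1460 in Dex rats. All 4 Dex rats lay above every naïve rat, and 4 of 5 Vehicle rats did. At 24 h it was 857, 2128, 1294 and 1459 in Vehicle, 1215, 1796, 1368, 903 and 2091 in Dex, and 1343, 1187, 1405, 1265 and 1453 in VPA, where no rat overlapped naïve. Krt7 was called in Dex at 3 h (1.06 ± 0.25, adjusted p = 0.00167) and at 24 h (1.03 ± 0.23, adjusted p = 0.00223). It passed the p threshold but not 2-fold in Vehicle at 3 h (0.70 ± 0.23, adjusted p = 0.0305), Vehicle at 24 h (0.98 ± 0.25, adjusted p = 0.00301) and VPA at 24 h (0.94 ± 0.23, adjusted p = 0.00202). At 120 h its differences were 0.50, 0.60 and 0.22 in Vehicle, Dex and VPA with adjusted p from 0.0655 to 0.637.

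Krt19 and Krt20 overlapped naïve in every injured group, and neither was called in any comparison with naïve. Krt19 was 817, 283, 185, 253 and 350 in naïve rats. At 24 h it was 319, 2134, 615 and 1359 in Vehicle, 422, 1003, 1248, 128 and 1118 in Dex, and 439, 627, 1137, 727 and 615 in VPA. The ranges overlapped, and naïve replicate 1 alone exceeded most injured rats. The largest Krt19 difference was 1.36 ± 0.57 in Vehicle at 24 h (adjusted p = 0.0667), and 1.00 ± 0.54 in VPA at 24 h (adjusted p = 0.16). It was called in Vehicle at 24 h when naïve replicate 1 was left out (1.68, adjusted p = 0.0274) or Vehicle 24 h replicate 1 was (1.83, adjusted p = 0.0141). In the other 7 injured groups the Krt19 difference lay between 0.41 and 0.85. Krt20 was dim, 30.1, 9.73, 5.02, 6.98 and 6.16 in naïve rats, around or below the lower quartile of the arrays (19.9 to 37.6), where the offset of 16 compresses any difference. In Dex rats at 24 h Krt20 was 13.3, 63.8, 43.6, 10.3 and 60.0, a pattern of 3 high and 2 low. That was its largest difference from naïve, 0.89 ± 0.27 (adjusted p = 0.0161), short of 2-fold. With a pseudocount of 1 in place of 16 it was 1.59 (adjusted p = 0.0181) and with array weights 1.37, and it was called in both. It was also called when naïve replicate 1 or Dex 24 h replicate 1 or 4 was left out (1.08 to 1.12).

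Krt19 followed the uroplakins, the plaque proteins of urothelium. Of the 7 urothelial markers considered 4 had a probe set of their own (Upk1a, Upk1b, Upk3a and Upk3b), and none was called in any comparison with naïve. Their summed signal ran from 129 to 2889 in naïve rats, 168 to 2365 in Vehicle at 24 h, 63.4 to 2075 in Dex at 24 h and 142 to 1745 in VPA at 24 h, so the groups overlapped. Naïve replicate 1, with the highest Krt19 and Krt20 of its group, had the sum of 2889, and Vehicle 24 h replicate 2, with the highest Krt19 of all, had 2365. Dex 24 h replicate 4, with the lowest Krt19 of all, had 99.2. With log2 of this sum as a covariate in the same fit (chosen after seeing the data), each doubling of the sum went with a rise of 0.45 ± 0.04 in Krt19 (adjusted p = 3.51e-10), 0.16 ± 0.03 in Krt20 (adjusted p = 0.00134) and 0.10 ± 0.03 in Krt7 (adjusted p = 0.044). Positive slopes with adjusted p under 0.05 were found for 5.91% of all probe sets tested. The slopes were 0.11 ± 0.05 for Krt8 (adjusted p = 0.104), 0.08 ± 0.05 for Vim (adjusted p = 0.265) and -0.01 ± 0.04 for Nes (adjusted p = 0.919). Aqp2, the collecting duct water channel, also had a positive slope, 0.21 ± 0.07 (adjusted p = 0.0338). Collecting duct markers were measured for 10 of 11 genes and their summed signal overlapped between naïve rats (6978 to 12961) and every injured group. With the covariate in the fit, Krt19 was called in Vehicle at 24 h (1.22 ± 0.30, adjusted p = 0.00235) and in VPA at 24 h (1.1 ± 0.28, adjusted p = 0.00242), and was 0.82 ± 0.28 in Dex at 24 h (adjusted p = 0.0333, below 2-fold). The call of Krt7 in Dex and of Krt8 in its 6 groups held in that fit.

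**Figure D2:**
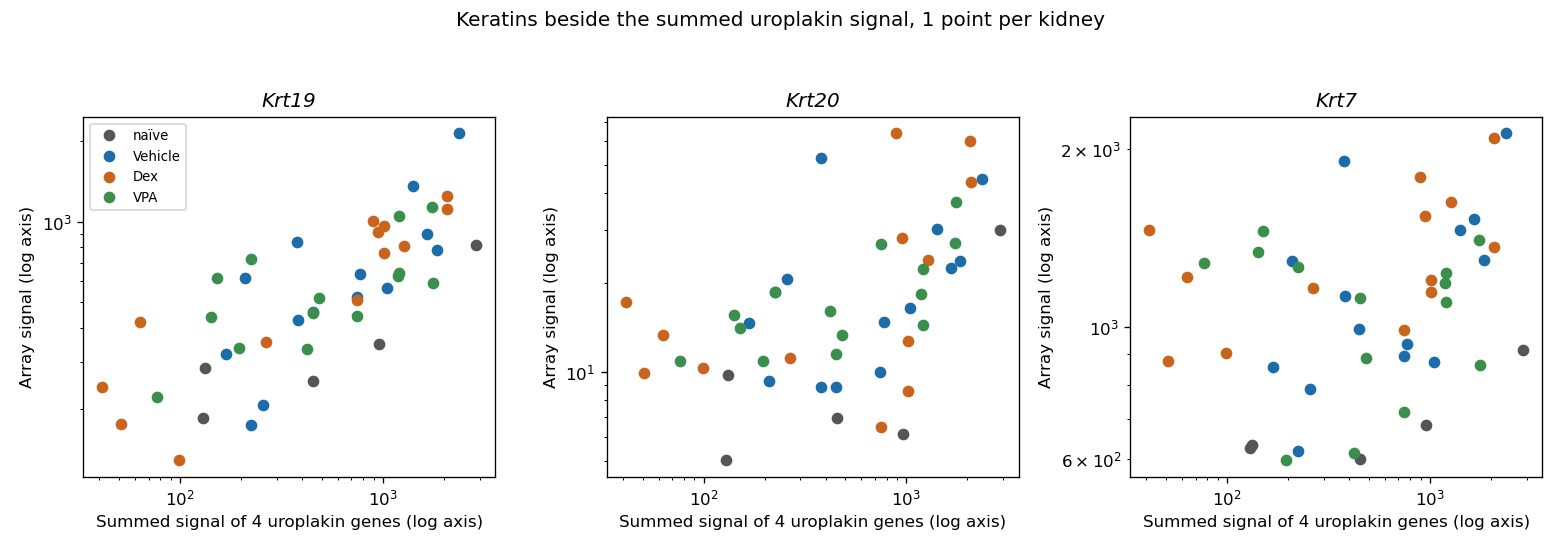
Signal of Krt19, Krt20 and Krt7 (vertical, log axis) against the summed signal of 4 uroplakin genes (horizontal, log axis), 1 point per kidney for 46 kidneys, coloured by treatment. Krt19 tends to rise with the sum, and its lowest value, 128, is at a sum of 99.2 and its highest, 2134, at 2365. The lowest sum, 41.2, has a Krt19 of 242 and the highest, 2889, one of 817. Slopes within naïve or injured rats alone were not fitted.

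Vim had the largest change of the 6 genes and was called in 7 of the 9 injured groups, in Vehicle rats at 24 and 120 h. In naïve rats it was 1174, 664, 1036, 944 and 935. In Vehicle rats it was 1346, 1774, 1368, 1313 and 2107 at 3 h. At 24 h it was 1164, 2424, 2952 and 2738, and at 120 h 1239, 3644, 3997, 2670 and 4066. All Vehicle rats but 24 h replicate 1 lay above the highest naïve rat, which 120 h replicate 1 exceeded by little. The Vehicle differences from naïve were 0.72 ± 0.33 at 3 h (adjusted p = 0.121), 1.21 ± 0.34 at 24 h (adjusted p = 0.00712) and 1.60 ± 0.33 at 120 h (3.04-fold, 95% confidence interval 1.93 to 4.80, adjusted p = 0.00331).

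In Dex rats Vim was 2160, 1571, 1976 and 2074 at 3 h, 2847, 2406, 2384, 1227 and 2745 at 24 h, and 5063, 3362, 4487 and 4405 at 120 h. No Dex rat at any time overlapped naïve. The differences were 1.03 ± 0.34 (adjusted p = 0.0278), 1.24 ± 0.33 (adjusted p = 0.00619) and 2.18 ± 0.34 (4.52-fold, 95% confidence interval 2.79 to 7.33, adjusted p = 0.000156). The 3 h call was lost when naïve replicate 2 or Dex 3 h replicate 1, 3 or 4 was left out, with adjusted p from 0.0601 to 0.0719. In VPA rats Vim was 960, 1069, 1266, 1250 and 1171 at 3 h, 3480, 1874, 3285, 2831 and 2925 at 24 h, and 5361, 1039, 1654 and 6075 at 120 h. The 3 h rats overlapped naïve, the 24 h rats did not, and the 120 h group held the highest Vim of all rats beside a rat in the naïve range. The differences were 0.28 ± 0.33 (adjusted p = 0.593), 1.58 ± 0.33 (2.98-fold, adjusted p = 4e-04) and 1.54 ± 0.34 (adjusted p = 0.0303). The 120 h call was lost when naïve replicate 2, 3, 4 or 5 or VPA 120 h replicate 1 or 4 was left out, with adjusted p up to 0.287.

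Genes of fibroblasts and macrophages, which also make vimentin, were high in the same 120 h rats. Of 8 fibroblast genes 2 were called higher than naïve in Vehicle, 4 in Dex and 4 in VPA at 120 h, and none at 3 or 24 h in any treatment. The summed fibroblast signal was 3899 to 7738 in naïve rats, 4400 to 12303 in Vehicle, 9040 to 13202 in Dex and 6098 to 15159 in VPA at 120 h. Of 9 macrophage genes 2, 7 and 2 were called higher at 120 h in Vehicle, Dex and VPA, with sums of 1339 to 1614 in naïve rats, 1335 to 4683, 3067 to 4755 and 1380 to 8195. At 24 h 2, 1 and 1 macrophage genes were called higher in Vehicle, Dex and VPA, and 1 in Dex at 3 h. VPA 120 h replicate 4, with the highest Vim, had the highest macrophage sum. Vehicle 120 h replicate 4 had a Vim of 2670 with a fibroblast sum of 5631 and a macrophage sum of 1668, inside and just above the naïve ranges. VPA 120 h replicate 3 had a Vim of 1654 with a fibroblast sum of 12769. Of 6 neutrophil genes 5 were tested, and 3 were called higher in Vehicle at 3 h, 3 in Vehicle at 24 h and 2 in VPA at 24 h, with 1 each in Dex and VPA at 3 h and at 120 h. Their summed signal was 61.0 to 169 in naïve rats, 171 to 448 in Vehicle at 3 h and 149 to 429 in Vehicle at 24 h. Of 6 smooth muscle and pericyte genes tested, only Tagln was called, higher in 4 comparisons: the Vehicle group at 24 h and at 120 h, the VPA group at 24 h and the Dex group at 120 h. No endothelial gene (4 tested of 6 measured) and no podocyte gene (3 tested of 5 measured) was called in any comparison with naïve. At 24 h, 4, 3 and 2 of 9 measured proximal tubule genes were called lower in Vehicle, Dex and VPA. The part of each cell type in the Vim signal was not tested.

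**Figure D3:**
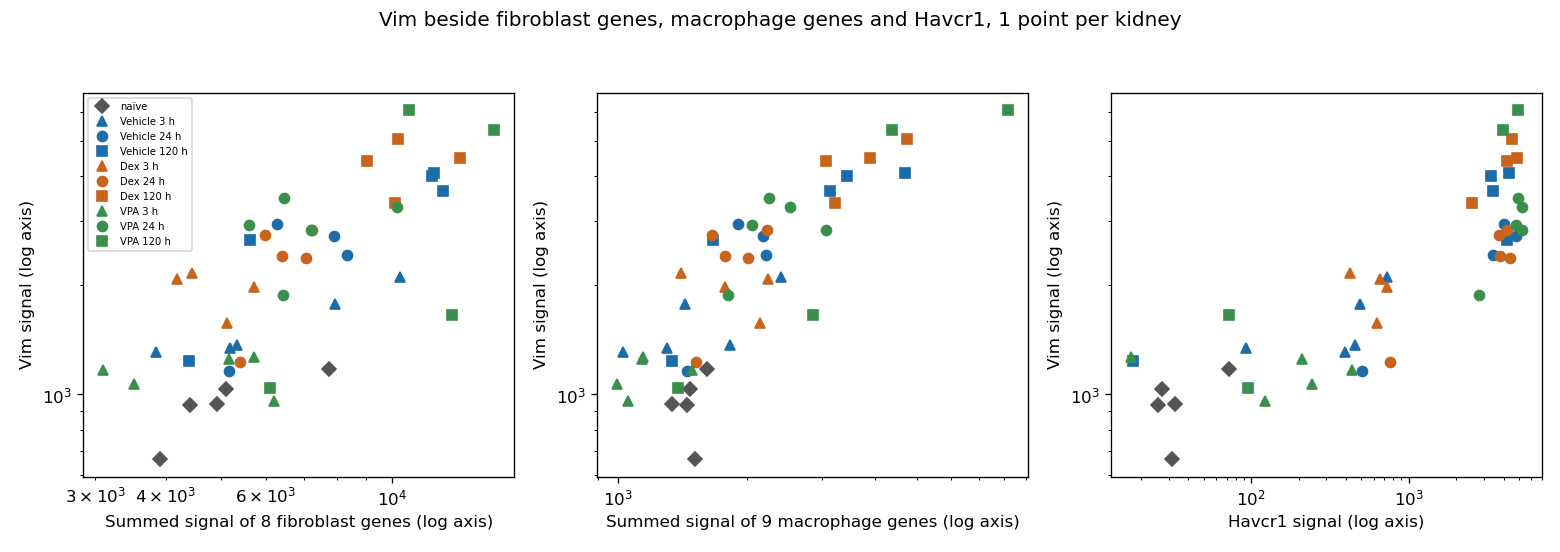
Vim signal (vertical, log axis) against the summed signal of 8 fibroblast genes, of 9 macrophage genes and the signal of Havcr1 (horizontal, log axes), 1 point per kidney for 46 kidneys, with colour for treatment and shape for time. The 120 h rat with the highest Vim, 6075, has the highest macrophage sum, and the naïve rats lie among the lowest in Vim, with naïve replicate 1 at a fibroblast sum of 7738.

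Nes was not called against naïve in any group. It was 45.2, 30.9, 45.3, 48.7 and 60.2 in naïve rats. At 24 h it was 70.9, 84.5, 110 and 89.0 in Vehicle, 99.2, 56.2, 93.5, 139 and 114 in VPA, and 91.9, 31.5, 37.5, 21.2 and 40.2 in Dex. All Vehicle rats and 4 of 5 VPA rats lay above every naïve rat, whereas 4 of 5 Dex rats lay below the highest naïve rat and only replicate 1 was high. At 120 h the Dex rats were at 110, 75.6, 118 and 92.9, all above naïve. Differences from naïve that passed the p threshold below 2-fold were 0.76 ± 0.25 in Vehicle at 24 h (adjusted p = 0.0191), 0.88 ± 0.24 in VPA at 24 h (adjusted p = 0.0036) and 0.90 ± 0.25 in Dex at 120 h (adjusted p = 0.00851). The summed signal of podocyte genes was 1643 to 2057 in naïve rats and 1544 to 2550 in Dex at 24 h. Dex 24 h replicate 1, with the high Nes, had the podocyte sum of 2550, and the other 4 rats of its group had 1544 to 2035. In Vehicle at 24 h the rat with the lowest Nes had the lowest podocyte sum, 1652, and the rat with the highest Nes had the highest, 2492. Other rats went the other way. VPA 120 h replicates 1 and 4, with Nes of 123 and 106, had sums of 1534 and 1352, below the naïve range. The Dex rats at 120 h, all above naïve in Nes, had sums of 1552 to 1904. Dex 24 h replicate 4, with the lowest Nes of its group, had 1875. The part of podocytes in the Nes signal was not tested.

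The counts of genes called are set here beside the share of all probe sets called. At 3 h, 1 of 6 genes was called higher in Vehicle, 3 in Dex and 0 in VPA, where the shares of all tested probe sets called higher were 3.18%, 4.44% and 1.43%. For VPA at 3 h 2 of 6 genes, Krt7 and Krt8, had an unadjusted limma p under 0.05, and the plain analysis of variance also called 0. At 24 h, 2, 3 and 2 genes were called in Vehicle, Dex and VPA against 4.79%, 2.59% and 5.92% of probe sets. At 120 h, 1, 2 and 1 were called against 1.83%, 4.76% and 0.493%. With 6 genes each count rests on 1 to 3 genes. Animal by animal, 32 of 41 injured rats had 3 or more of the 6 genes above the highest naïve rat, and 6 rats had at most 1. They included Vehicle 3 h replicate 1, Vehicle 120 h replicate 1 and VPA 3 h replicate 1. The rest were VPA 120 h replicates 2 and 3 and Dex 24 h replicate 4. Vehicle 24 h replicates 2 and 4 had all 6. The share of all probe sets above the highest naïve rat was not computed. These counts therefore describe the rats and are not a result about these genes.

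**Figure D4:**
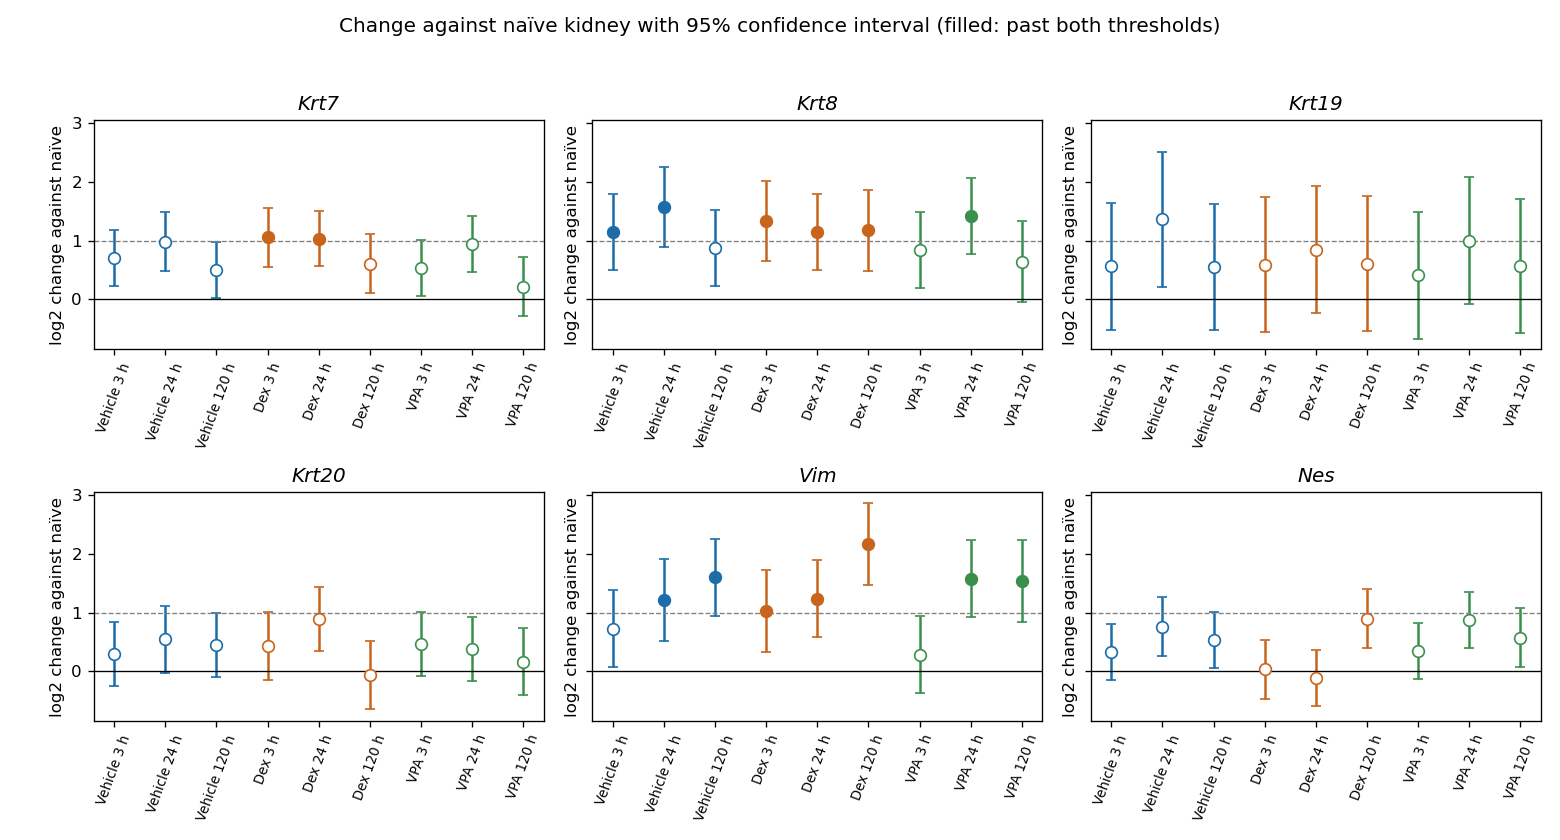
Log2 difference from naïve with its 95% confidence interval for 6 genes in 9 injured groups, from the limma fit; filled points passed both thresholds and the dashed line marks 2-fold. Krt8 and Vim hold 13 of the 15 filled points, Krt7 holds 2, and the Krt19 intervals are the widest.

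Whether the drugs changed these genes was asked against Vehicle at each time. None of the 6 genes was called for Dex or VPA at 3, 24 or 120 h. In limma, 1 of these 36 values, Nes in Dex at 24 h, had an unadjusted p under 0.05, and the plain analysis of variance called 0. Few probe sets were called at all in either direction, 0.171%, 0.116% and 0% for Dex and 0.0548%, 0% and 0% for VPA at the 3 times. Nes in Dex rats at 24 h was 0.88 lower than in Vehicle on the log2 scale (95% confidence interval -1.38 to -0.37, adjusted p = 0.168), and without Dex 24 h replicate 1 it was called (-1.11, adjusted p = 0.00904). For Vim at 3 h the VPA rats (960 to 1266) all lay below the Vehicle rats (1313 to 2107) and the Dex rats (1571 to 2160). The Vim difference of VPA from Vehicle was -0.44 (95% confidence interval -1.1 to 0.21, adjusted p = 0.732) and from Dex -0.76 (-1.45 to -0.06, adjusted p = 0.435). For Krt8 the intervals of VPA minus Vehicle ran from -0.94 to 0.35 at 3 h, -0.83 to 0.54 at 24 h and -0.93 to 0.45 at 120 h, so changes approaching 2-fold could not be told from none.

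Between the drugs, Nes was higher in VPA than in Dex rats at 24 h by 1.00 ± 0.24 (adjusted p = 0.0344), in a comparison where 0.329% of probe sets were called. Its ranges overlapped through Dex 24 h replicate 1 and VPA 24 h replicate 2, and the call was lost in 8 of 10 fits that left out 1 rat (all but VPA replicate 2 and Dex replicate 1), with adjusted p up to 0.176. No gene was called between VPA and Dex at 3 h (0.431% of probe sets called; Krt7 and Vim had an unadjusted limma p under 0.05) or at 120 h (0% called; no gene had an unadjusted p under 0.05), and the plain analysis of variance called 0 at both times.

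Over time within a treatment, the genes called were Vim and Nes, each in 1 comparison. Vim rose from 3 to 24 h in VPA rats by 1.30 ± 0.33 (adjusted p = 0.0022), with no overlap between the times, where 5.81% of probe sets rose. Nes rose from 24 to 120 h in Dex rats by 1.01 ± 0.25 (adjusted p = 0.00793), where 2.14% rose, and fell just short of 2-fold in 5 of 9 fits that left out 1 rat (without Dex 24 h replicate 2, 3 or 4 or Dex 120 h replicate 1 or 3; 0.86 to 0.99). Vim in the same comparison differed by 0.94 ± 0.34 (adjusted p = 0.0582), although the rats did not overlap. Krt20 fell by 0.95 between 24 and 120 h in Dex rats (adjusted p = 0.0221), to 9.93, 6.47, 8.58 and 12.7, short of 2-fold. No gene was called higher from 3 to 24 h in Vehicle (1.87% of probe sets) or Dex (2.3%), nor from 24 to 120 h in Vehicle (0.0616%) or VPA (0.0822%). In those 4 comparisons 0, 0, 1 and 2 genes had an unadjusted limma p under 0.05, and the plain analysis of variance called 0. No interaction of treatment with time was called. The nearest was Nes, where Dex minus Vehicle was 1.23 ± 0.35 higher at 120 h than at 24 h (adjusted p = 0.295).

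Keratins outside the set included some with larger changes. Of 41 other keratin genes measured, 21 were in the test, and 2, 3 and 0 were called higher in Vehicle at 3, 24 and 120 h, with none lower. Krt17, a keratin of basal and stressed epithelia, was 3.38 to 9.62 in naïve rats and at most 311 in injured rats, and rose by 2.78 ± 0.47 in Vehicle at 3 h (adjusted p = 4.29e-05) and by 2.74 ± 0.50 at 24 h (adjusted p = 0.000278). Krt14, a basal cell keratin, rose by 2.43 ± 0.60 in Vehicle at 24 h (adjusted p = 0.00261) and by 1.82 ± 0.57 in VPA at 24 h (adjusted p = 0.0115). Krt14 and Krt17 also followed the uroplakin sum, with slopes of 0.39 ± 0.06 (adjusted p = 6.31e-05) and 0.20 ± 0.07 (adjusted p = 0.0469). Krt18l1, a separate keratin 18-like entry whose probes may share sequence with Krt18, rose by 1.73 ± 0.43 at 3 h (adjusted p = 0.00345) and 2.17 ± 0.46 at 24 h (adjusted p = 0.000768) in Vehicle rats. The median over all 41 of these keratins was 0.16 in Vehicle at 24 h. Over all probe sets tested, which leave out those with the smaller spread, it was 0.13.

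The proteins that anchor keratin filaments to desmosomes and to the membrane moved in part. Of 14 such linker genes 10 were tested, and 1, 3 and 0 were called higher in Vehicle at 3, 24 and 120 h. The median difference over all 14 was 0.44 in Vehicle at 24 h. Plec, plectin, which crosslinks intermediate filaments, rose by 1.28 ± 0.28 at 3 h (adjusted p = 0.000829) and 1.46 ± 0.29 at 24 h (adjusted p = 0.000565). Ppl, periplakin, rose by 1.49 ± 0.40 (adjusted p = 0.00448) and Pkp1, plakophilin 1, by 1.69 ± 0.51 (adjusted p = 0.0106) in Vehicle at 24 h. Of 14 other intermediate filament genes 11 were tested, and 1, 2 and 0 were called higher in Vehicle. Lmna, a nuclear lamin, rose by 1.06 ± 0.25 at 3 h (adjusted p = 0.00225). Des, the muscle and pericyte filament desmin, rose by 1.12 ± 0.29 (adjusted p = 0.00377) and Lmnb1, a lamin of dividing cells, by 1.21 ± 0.38 (adjusted p = 0.0152) at 24 h. Of 8 tubular injury genes 7 were measured, and 2, 4 and 4 were called higher in Vehicle at 3, 24 and 120 h, with Havcr1 (kidney injury molecule 1) higher by 5.56 ± 1.02 at 24 h (adjusted p = 0.000291). Vehicle 120 h replicate 1, low in Krt8 and close to naïve in Vim, had a Havcr1 signal of 17.8, below the 25.5 to 72.0 of naïve rats.

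Likeness of pattern was measured as Pearson's r over the 10 group means among 8918 other genes and is a description. Krt8 was nearest to Itga3 (0.99), an integrin subunit of epithelial adhesion, to Plec (0.98) and to S100a10 (0.97). Krt7 was nearest to Cldn7 (0.97), a tight junction claudin, Tmem88 (0.96) and Ppl (0.96). Vim was nearest to Col4a1 (0.99), a basement membrane collagen, Anxa3 (0.98) and Niban1 (0.97). Nes was nearest to Pik3ap1 (0.96), Rhoc (0.95) and Rap2a (0.94), Krt19 to LOC297756 (0.98), Aatf (0.96) and Nepro (0.96), and Krt20 to Minar2 (0.98), Or9i14 (0.96) and Grik4 (0.96). Among the genes themselves r was 0.92 for Krt7 with Krt8, 0.86 for Krt8 with Krt19 and 0.64 for Vim with Nes, and 0.32 for Krt7 with Vim.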

How the data were processed

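The authors hybridised RNA of each rat to an Affymetrix Rat Gene 1.1 ST array and summarised probe sets with Affymetrix Expression Console 1.1 (iterPLIER; annotation built on rn4). The deposited values are linear signal intensity, 1 per probe set and array, without an offset. The methods state that 2 of 44 arrays were excluded, while 46 were given and all were used. Symbols came from the platform annotation, where 18644 probe sets have 1 symbol, 962 several and 9608 none. Values were tested as log2(signal + 16) with limma 3.58.1 in R 4.3.3, 10 groups in 1 fit, after removal of the 14607 of 29214 probe sets with the lower SD as in the authors' methods, with Benjamini-Hochberg adjustment. The script was tested on simulated data. The labels do not say whether rats of a group shared a litter or day. The paper's supplement states that the 3 h rats were all studied before the 24 h and 120 h rats. Differences between times therefore cannot be told apart from the order of the work. All members are described; beside them, the rule named the 3 nearest genes by r over group means and, from each list, called genes with the largest Vehicle changes. Members and lists were chosen with earlier results of these data known. Precision is limited by the 4 or 5 arrays per group. RefSeq promoter windows were of build GRCr8.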

Additional observations from a re-analysis of the deposited data

Results flagged for a closer look

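Of 60 groups of 4 or 5 signals (6 genes in 10 groups), 2 held a rat far from the rest of its group by Dixon's test; chance alone flags about 1 in 20 groups. Krt20 in naïve replicate 1 was 30.1, against 5.02 to 9.73 in the other 4 naïve rats (gap 0.743 of the range, limit 0.71). That rat also had the highest uroplakin sum of all rats, 2889. Vim in Dex 24 h replicate 4 was 1227, against 2384 to 2847 in the other 4 rats (gap 0.789). That rat's Krt8 was 452 and its Havcr1 756, both the lowest of its group. The causes were not tested.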

How the results depend on the processing

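In fits of the 24 comparisons under 10 other settings, and 2 chosen after seeing the data (the uroplakin covariate and the other Krt8 probe set), no called gene changed sign. Weighting arrays by quality called 4 genes against naïve in Vehicle at 24 h (2 without weights), 2 in Vehicle at 120 h, 5 in Dex at 24 h, 1 in VPA at 3 h, 4 in VPA at 24 h and 0 in VPA at 120 h. It also called 1 gene for VPA against Vehicle and 2 for VPA against Dex at 120 h, 1 for Vehicle from 3 to 24 h and 1 from 24 to 120 h, 2 for Dex and 3 for VPA from 24 to 120 h, and 2 interactions of treatment with time. Without the fold threshold 2 genes passed in Vehicle at 3 h, 4 in Vehicle and 4 in VPA at 24 h, and 2 for Dex from 24 to 120 h; a pseudocount of 1 also gave 2 there. The 1 call in VPA at 120 h (Vim) became 0 without the SD filter, with only the 2 groups fitted and in the plain analysis of variance. The 1 call of VPA against Dex at 24 h (Nes) became 0 under the same 3 settings and with quantile normalization. With the uroplakin covariate it also became 0, but only because Nes fell just short of 2-fold (0.998, adjusted p = 0.0391). Removing dim probe sets and averaging the probe sets of a gene moved no count by over 1.5 times. Uncalled differences from naïve turned sign for Nes in Dex at 3 h (-0.028 with quantile normalization and -0.080 with weights), Krt20 in Dex at 120 h (0.12 with weights) and Krt7 in VPA at 120 h (-0.054 with weights).

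Leaving out 1 rat at a time gave 2 to 4 calls in Vehicle at 24 h, 1 to 2 in Vehicle at 120 h, 1 to 3 in Dex at 3 h, 1 to 5 in Dex at 24 h, 0 to 1 in VPA at 120 h, 0 to 1 for Dex against Vehicle at 24 h, 0 to 1 for VPA against Dex at 24 h, 0 to 2 for Dex from 24 to 120 h and 0 to 1 interactions. Dex at 3 h fell to 1 without Dex 3 h replicate 1. Dex at 24 h fell to 1 without its replicate 5 and rose to 5 without its replicate 4. The 4 calls in Vehicle at 24 h came without naïve replicate 1 or Vehicle 24 h replicate 1, and the 2 at 120 h without naïve replicate 1 or Vehicle 120 h replicate 1. The interaction was that of Nes without Dex 24 h replicate 1. Ranges that crossed 0 were -0.064 to 0.11 for Nes in Dex at 3 h, -0.35 to 0.032 for Nes in Dex at 24 h and -0.14 to 0.14 for Krt20 in Dex at 120 h. The causes were not tested. Same-numbered rats did not deviate together (mean r 0.01 over 195 pairs), and with the replicate number as a block (replicate block) the count of these genes was 3 in place of 2 in Vehicle at 24 h and the same elsewhere. Over all probe sets the block moved the calls by over 1.5 times in VPA at 120 h (154 in place of 100), Vehicle from 24 to 120 h (57 in place of 33) and VPA from 24 to 120 h (5 in place of 51). Krt20 and Krt17 signals in naïve rats lay below the lower quartile of the arrays for all but 1 rat and all rats, respectively, so their changes are compressed. Groups of 4 or 5 rats give Krt19 a standard error near 0.54 to 0.57.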
